A study of Homo sapiens with 6 samples.

Results

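The TSC22 domain family is a set of 4 human genes, TSC22D1, TSC22D2, TSC22D3 and TSC22D4, whose proteins share a TSC box followed by a leucine zipper. The 4 members, and the gene lists set beside them, were chosen by name with earlier results of these data known. Each member matched 1 of the 58051 gene IDs in the count table. They were read in A375 cells, an established human melanoma line, in 6 RNA-seq libraries of 2 groups. Both groups were starved for 2 h first. The TGFB1 group (3 libraries) was then exposed to recombinant TGFB1 at 10 ng/mL for a further 2 h, and the Vehicle group (3 libraries) to 4 mM HCl with BSA at 1 mg/mL for the same time. The design text describes the triplicates as technical, so each p-value measures the spread between these libraries and not that between independent experiments. In bulk RNA, more cells that express a gene and more RNA per cell cannot be told apart.

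TSC22 domain proteins form dimers through the leucine zipper and lack the basic region with which classical leucine zipper factors grip DNA, so they are known mainly as partners of other proteins. TSC22D1 was first cloned as a transcript stimulated by TGF-beta, which gave the family its name, and is known for effects on growth and differentiation. TSC22D3 is also called GILZ, for glucocorticoid-induced leucine zipper, and its product dampens NF-kB and AP-1 activity. TSC22D4 can pair with TSC22D1, and long forms of the family bind the pseudokinase NRBP1 and work with the WNK kinases that sense cell volume.

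The family's genes are annotated with several start sites each, and those of TSC22D1 lie far apart. In GENCODE 29 on GRCh38, TSC22D1 (ENSG00000102804) spans chromosome 13 from 44432143 to 44577147 on the minus strand, with 7 coding transcripts from 6 start sites. A long coding transcript starts at 44576565 and has 1073 codons, whereas a short one starts at 44436845 and has 144. TSC22D2 (ENSG00000196428) lies on the plus strand of chromosome 3 from 150408335 to 150466431 and has 780 codons in its longest coding transcript. TSC22D3 (ENSG00000157514) lies on the minus strand of chromosome X from 107713221 to 107777342, with 17 coding transcripts of up to 200 codons. TSC22D4 (ENSG00000166925) lies on the minus strand of chromosome 7 from 100463359 to 100479279 and has up to 395 codons. The deposited counts are 1 value per gene, so the long and short forms of a gene are summed in every value below.

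The RefSeq promoter table (GRCh38.p14) matched 3 of the 4 members, with 10 start sites, 5 of them in TSC22D1, 4 in TSC22D3 and 1 in TSC22D4. Bases upstream of 3 TSC22D1 start sites are printed because that gene carries the change described below. Those upstream of 1 TSC22D3 start site are printed because a coding transcript of 100 codons starts there. The printed sequences run 5′ to 3′ on the gene's strand and hold only bases outside GENCODE exons. Capitals mark matches, on either strand, to the motifs named after them.
TSC22D1, start site 44576565, chr13:44576566-44576815: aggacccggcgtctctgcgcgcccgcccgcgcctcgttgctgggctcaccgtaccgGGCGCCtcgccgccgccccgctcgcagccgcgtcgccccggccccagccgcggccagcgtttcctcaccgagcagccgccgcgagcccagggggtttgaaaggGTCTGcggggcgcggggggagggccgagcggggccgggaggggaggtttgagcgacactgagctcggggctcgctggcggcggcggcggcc
TSC22D1, start site 44474341, chr13:44474342-44474591: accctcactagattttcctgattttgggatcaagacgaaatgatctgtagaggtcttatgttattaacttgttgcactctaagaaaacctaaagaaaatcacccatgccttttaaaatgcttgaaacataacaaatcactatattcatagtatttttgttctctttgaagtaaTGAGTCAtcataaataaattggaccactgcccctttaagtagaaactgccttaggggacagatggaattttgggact
TSC22D1, start site 44436858, chr13:44436859-44437056: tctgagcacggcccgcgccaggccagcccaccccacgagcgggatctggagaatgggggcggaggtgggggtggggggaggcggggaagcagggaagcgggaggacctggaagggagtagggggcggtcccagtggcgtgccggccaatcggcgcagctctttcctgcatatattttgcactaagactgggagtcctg
TSC22D3, start site 107717062, chrX:107717136-107717312: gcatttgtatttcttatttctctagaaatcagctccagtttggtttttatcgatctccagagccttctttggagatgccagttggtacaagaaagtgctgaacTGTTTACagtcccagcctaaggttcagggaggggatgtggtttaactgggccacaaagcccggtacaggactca

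The motifs searched, on both strands of windows from 250 bases before to 50 after a start, were the SMAD box CAGAC, the SMAD palindrome GTCTAGAC, the GC-rich SMAD element GGCGCC, the AP-1 motif TGANTCA and the forkhead motif TGTTTAC. The TATA motif TATAAA and the E-box CACGTG were searched as well. The SMAD box was found in 6 of the 10 windows of the family, against 45.3% of all 35116 windows, and windows of neighbouring starts overlap. The SMAD palindrome was in 0 of the 10 and in 0.202% of all windows. Upstream of the TSC22D1 start at 44576565, a SMAD box began at position -91 and a GC-rich element, which 19.2% of all windows hold, at -194. The AP-1 motif, found in 7.71% of all windows, stood at -77 from the TSC22D1 start at 44474341. The window of the TSC22D1 start at 44436858, that of a short form, held no match to any of these motifs. Another TSC22D1 start, at 44437248, is not printed and lies beside that of an 86-codon form. Its window held a SMAD box at -15 and TATAAA at -223 and -113. The TSC22D1 start at 44576330, also not printed, had TATAAA at -28 and the E-box, found in 7.26% of all windows, at -42. The forkhead motif, present in 3.42% of all windows, began at -147 from the TSC22D3 start at 107717062. There TATAAA (11.5% of all windows) stood at -29 and a SMAD box at 3, both beyond the bases printed. The TSC22D3 starts at 107775787 and 107775988 had a SMAD box at -171 and at 31. The TSC22D4 start at 100479214 had a SMAD box at -210. At the TSC22D3 start 107716508, GC-rich elements stood at -160 and -143. A match is a run of letters and not a bound site.

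TSC22D1 was by far the most abundant member and rose with TGFB1. Its level was 195, 188 and 194 CPM (counts per 1000000 counts of the library) in Vehicle replicates 1, 2 and 3. With TGFB1 it was 312, 303 and 302 CPM. The 3 TGFB1 libraries lay above the 3 Vehicle libraries with a wide gap, and neither group was spread by more than a few percent. These values rest on 4809 to 10581 counts per library. The mean was 192 ± 3.39 CPM in Vehicle and 306 ± 5.48 CPM in TGFB1 libraries (SD, n = 3 each). This is 0.66 ± 0.05 (SE) as a log2 fold change, or 1.58-fold with a 95% interval of 1.48 to 1.69. The adjusted p was 1.98e-12 (edgeR quasi-likelihood test, Benjamini-Hochberg over 16690 genes), the 39th smallest p-value of the table. By size, 3.1% of tested genes had a larger log2 fold change. The estimate stayed between 0.65 and 0.68 when each library was left out in turn.

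**Figure D1:**
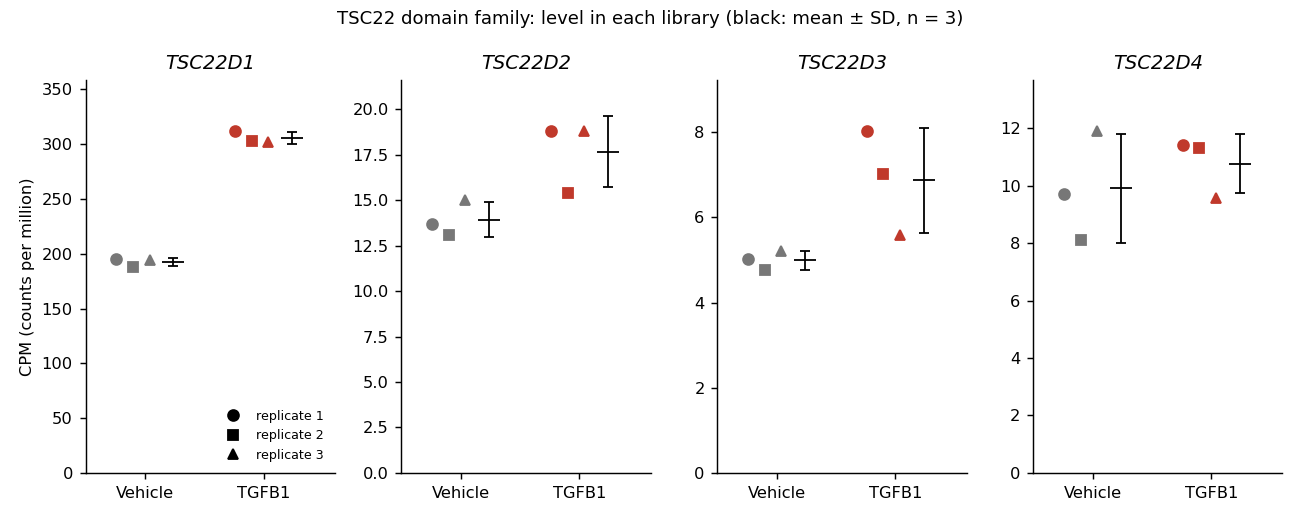
Level of each family member in CPM (vertical axis, starting at 0 and scaled per gene) in the 3 Vehicle and 3 TGFB1 libraries, 1 symbol per replicate number, with the mean ± SD in black. TSC22D1 sits at 188 to 195 CPM in Vehicle and 302 to 312 CPM with TGFB1, while the groups of TSC22D4 overlap.

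TSC22D2, the member with the longest exonic sequence, did not pass the test. Its level was 13.7, 13.1 and 14.95 CPM in Vehicle replicates 1, 2 and 3, and 18.8, 15.4 and 18.8 CPM in TGFB1 replicates 1, 2 and 3. The groups did not overlap, but TGFB1 replicate 2 lay next to Vehicle replicate 3. The log2 fold change was 0.33 ± 0.11 (SE), with a 95% interval of 0.12 to 0.55 before any adjustment, and the adjusted p was 0.0869 (edgeR). The call changed in 2 of the fits that left out a library. Without Vehicle replicate 3 TSC22D2 passed at an adjusted p of 0.0407 (log2 fold change 0.38) and without TGFB1 replicate 2 at 0.0379 (0.42). Without Vehicle replicate 3 the calls over all genes also went from 553 to 923, and without TGFB1 replicate 2 they were 479. Of all 14 alternatives TSC22D2 passed under these 2 alone, and its adjusted p ran from 0.0379 to 0.394.

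TSC22D3, the glucocorticoid-induced member, was the least abundant by CPM, with 124 to 261 counts per library. It stood at 5.02, 4.76 and 5.21 CPM in Vehicle replicates 1, 2 and 3. With TGFB1 it was 8.03, 7.02 and 5.58 CPM. Vehicle was tight, whereas TGFB1 replicate 3 stayed close to the Vehicle values and TGFB1 replicate 1 lay farthest above them. The log2 fold change of 0.45 ± 0.16 (SE) had an unadjusted 95% interval of 0.13 to 0.78 and an adjusted p of 0.151 (edgeR), so it did not pass. It was 0.58 without TGFB1 replicate 3 (adjusted p = 0.0766) and 0.34 without TGFB1 replicate 1 (adjusted p = 0.661), and it passed under none of the 14 alternatives, which spanned adjusted p-values of 0.0766 to 0.661.

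TSC22D4, a dimer partner of TSC22D1, showed no separation of the groups. It stood at 9.71, 8.10 and 11.9 CPM in Vehicle replicates 1, 2 and 3, and at 11.4, 11.3 and 9.58 CPM in TGFB1 replicates 1, 2 and 3. The highest value of all 6 was that of Vehicle replicate 3. The log2 fold change was 0.11 ± 0.13 (SE), with a 95% interval of -0.16 to 0.38 and an adjusted p of 0.826 (edgeR), which leaves a rise of up to 1.30-fold or a fall to 0.896 of the Vehicle level within the interval. Without Vehicle replicate 2 the estimate was -0.00996, and without Vehicle replicate 3 it was 0.26.

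Of the 4 members, 1 was therefore higher and 0 were lower at an adjusted p under 0.05 (edgeR), against 2.43% of all 16690 tested genes higher and 0.887% lower, 3.31% in all. All 4 had passed the low-count filter. Without Vehicle replicate 3 or TGFB1 replicate 2 the count of members higher was 2. With DESeq2 and with limma-voom it was 1. At an unadjusted p under 0.05, 3 members were higher, against 7.41% of all tested genes, and 0 lower. The TGFB1 libraries lay above the Vehicle libraries without overlap for the same 3, TSC22D1, TSC22D2 and TSC22D3, against 8.96% of all tested genes. The median log2 fold change of the members was 0.39, beside -0.00674 over all tested genes. The members were chosen with earlier results known, so these comparisons describe them and are not a test of the family. The precision differed between them: the biological coefficient of variation that edgeR fitted, which leaves out the counting error, was 0.0482 for TSC22D1, 0.08 for TSC22D2, 0.1 for TSC22D4 and 0.116 for TSC22D3, with a median of 0.0861 over all genes.

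Of 10 reference genes of TGF-beta signalling and response, 6 were higher and 0 lower (edgeR), against 2.43% and 0.887% of all genes. The counts were the same by DESeq2 and limma-voom. At an unadjusted p under 0.05 there were 7 and 0, against 7.41% and 4.87%. SMAD7, the inhibitory SMAD that feeds back on the receptor, had a log2 fold change of 2.70 ± 0.10 (SE). The corepressor gene SKIL (1.47), PMEPA1 (1.25) and the AP-1 gene JUNB (1.85) rose as well. TSC22D1 at 0.66 lay below these 4 genes and above SMAD3, which encodes a receptor-activated transducer (0.30, adjusted p = 0.017). SMAD3 lost its call without Vehicle replicate 1 (0.133), TGFB1 replicate 2 (0.0518) or TGFB1 replicate 3 (0.161). The other 4 did not pass, with log2 fold changes below that of TSC22D1: the receptor genes TGFBR1 (-0.08, adjusted p = 0.646) and TGFBR2 (0.22, 0.0801) and the SMAD genes SMAD2 (-0.07, 0.658) and SMAD4 (0.09, 0.644). TGFBR2 passed without Vehicle replicate 3 (0.0338). TSC22D1 kept its call under all 14 alternatives, as did SMAD7, SKIL, PMEPA1 and JUNB.

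**Figure D2:**
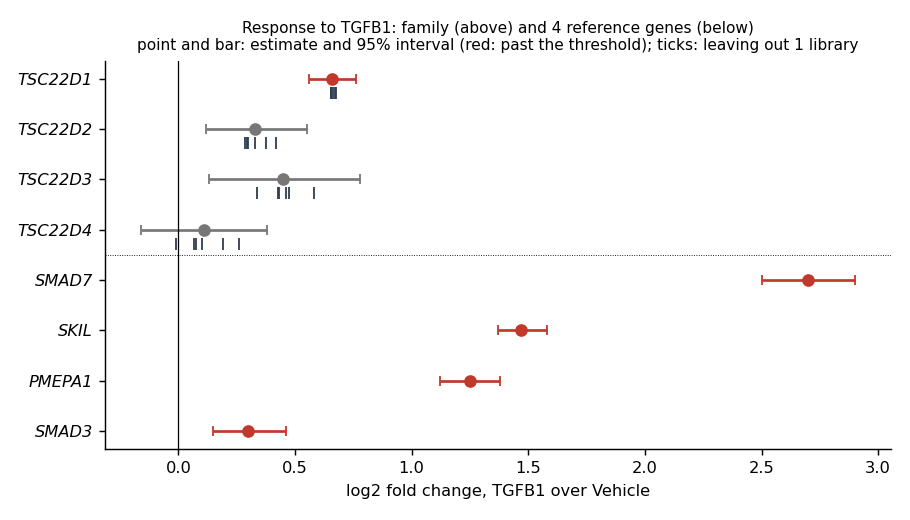
Log2 fold change of TGFB1 over Vehicle (horizontal axis) for the 4 family members and 4 reference genes, as the estimate with its 95% interval, red where the adjusted p is under 0.05. Ticks under each family member are the 6 estimates with 1 library left out; those of TSC22D1 stay between 0.65 and 0.68 and those of TSC22D4 reach -0.00996.

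Levels can be compared between members only per length. Dividing CPM by the exonic length in GENCODE 29 (8586 bases for TSC22D1, 11676 for TSC22D2, 4766 for TSC22D3 and 3715 for TSC22D4) gave TSC22D1 22.4 ± 0.394 CPM per kb in Vehicle and 35.6 ± 0.638 with TGFB1 (SD, n = 3 each). TSC22D4 came next, at 2.67 ± 0.513 and 2.90 ± 0.275 CPM per kb. TSC22D2 stood at 1.19 ± 0.0812 and 1.51 ± 0.166 CPM per kb, and TSC22D3 at 1.05 ± 0.0468 and 1.44 ± 0.258. TSC22D1 was first and TSC22D4 second in each of the 6 libraries, with a ratio between them of 7.05 to 13.6, and TSC22D4 did not overlap with TSC22D2 or TSC22D3. TSC22D2 and TSC22D3 differed by less than their spread with TGFB1, where 2 of the 3 libraries had TSC22D3 above TSC22D2, and with the longest transcript as the length TSC22D3 was above TSC22D2 in every library. By level per length in Vehicle, TSC22D1 stood at percentile 87.3 of the tested genes with a length, TSC22D4 at 49.0, TSC22D2 at 35.1 and TSC22D3 at 33.1. Where mainly short transcripts are made, division by all annotated exons understates a level. It would also do so if reads over exons shared with another gene were not counted, which is not known here. Such exons make up 13.1% of the exonic bases of TSC22D1 (opposite strand) and 10.5% of those of TSC22D4 (same strand). For TSC22D3 they make up 1.49% (opposite strand).

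On this scale TSC22D1 made up 82.1 ± 1.73% of the family total in Vehicle and 85.9 ± 0.832% with TGFB1 (SD, n = 3 each). Its share was 82.4, 83.6 and 80.2% in Vehicle replicates 1, 2 and 3 and 85.1, 85.8 and 86.8% in TGFB1 replicates 1, 2 and 3, without overlap. TSC22D4 took 8.31 to 11.4% in Vehicle and 6.36 to 7.4% with TGFB1, again without overlap. TSC22D2 took 4.27 to 4.55% and 3.21 to 3.97%. The share of TSC22D3 overlapped, at 3.81 to 3.88% and 2.89 to 3.94%. The differences of 3.83, -2.75 and -0.716 percentage points for TSC22D1, TSC22D4 and TSC22D2 each had p = 0.1 in a two-sided exact permutation test, the smallest that 3 against 3 libraries can give, and 0.133 adjusted over the 4 shares. For TSC22D3 the difference was -0.368 points (exact p = 0.4, adjusted 0.4). The family total was 27.3 ± 0.973 CPM per kb in Vehicle and 41.5 ± 1.11 with TGFB1 (SD, n = 3 each), and TSC22D1 gave 13.2 of the 14.2 CPM per kb gained. The shares add up to a fixed total, so the lower shares of TSC22D2 and TSC22D4 stand beside higher mean levels of both genes.

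**Figure D3:**
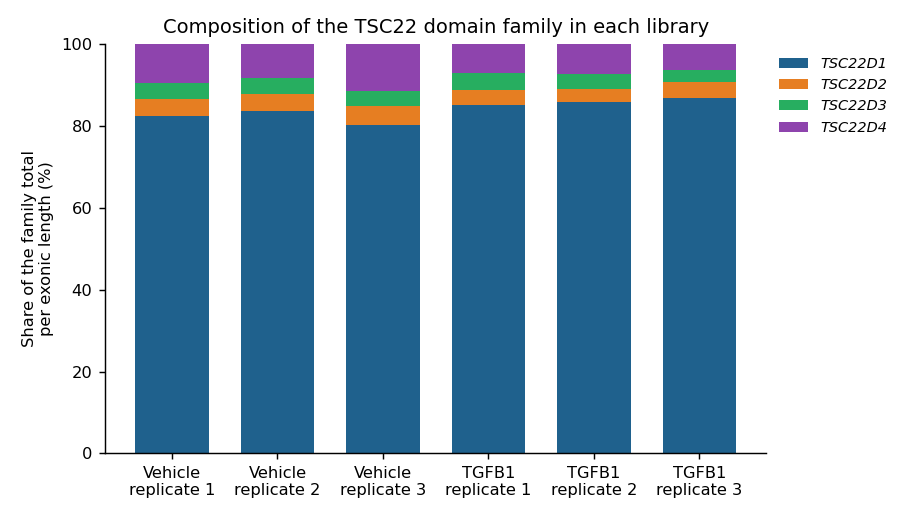
Share of each member in the family total per exonic length (vertical axis, percent) in each of the 6 libraries. TSC22D1 fills 80.2 to 83.6% of the Vehicle bars and 85.1 to 86.8% of the TGFB1 bars.

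No gene that overlaps or flanks a member was called: of 7 tested, 0 passed (edgeR), as with DESeq2 and limma-voom, and 0 had an unadjusted p under 0.05. Over all genes these shares were 3.31% and 12.3%, so 0 of 7 is near the background. TSC22D1-AS1, an antisense RNA gene over the upstream start of TSC22D1, had 7, 13 and 19 counts in Vehicle replicates 1, 2 and 3 and 19, 13 and 8 in TGFB1 replicates 1, 2 and 3 (log2 fold change -0.09 ± 0.56 SE, adjusted p = 0.981). Exons of the opposite strand cover 13.1% of the exonic bases of TSC22D1, and the strand setting of the counting is not given in the sources used here. TSC22D1-AS1 is therefore uncertain, as is the counting of TSC22D1 reads over those bases. The other opposite-strand genes there, AL138960.2 and AL139184.1, had at most 2 counts in a library. SERP2 lies 34.4 kb from TSC22D1 and had 0 to 4 counts, while its paralog SERP1 lies 75.6 kb from TSC22D2 and stood at 286 ± 8.63 and 285 ± 4.04 CPM in Vehicle and TGFB1 (SD, n = 3 each). Both encode proteins of the endoplasmic reticulum. By position, a SERP gene is the nearest coding neighbour on 1 side of TSC22D1 and of TSC22D2. SERP1 had a log2 fold change of -0.01 (adjusted p = 0.972), NUFIP1 on the far side of TSC22D1 -0.05 (0.901), and PRPS1 and MID2 beside TSC22D3 -0.01 (0.985) and 0.24 (0.74). C7orf61, which overlaps the 3′ end of TSC22D4 on the same strand over 391 exonic bases, had at most 4 counts.

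The pathway in which long TSC22 proteins take part, that of NRBP1, the WNK kinases and the ion cotransporters they control, held no called gene. Of 21 listed genes 17 were tested, and 0 were higher and 0 lower (edgeR, and likewise DESeq2 and limma-voom). Over all genes these shares were 2.43% and 0.887%, so 0 of 17 is near the background. At an unadjusted p under 0.05, 1 was higher and 0 lower, against 7.41% and 4.87% of all genes. The 1 was LRRC8A, which encodes a subunit of the volume-regulated anion channel (log2 fold change 0.14 ± 0.06 SE, adjusted p = 0.303). The median log2 fold change of the list was -0.02. SLC12A2, which encodes the sodium-potassium-chloride cotransporter NKCC1, had means of 199 ± 10.8 CPM (Vehicle) and 186 ± 11.5 CPM (TGFB1; SD, n = 3 each, adjusted p = 0.415, edgeR). CAB39, which encodes a scaffold that activates the SPAK and OSR1 kinases, stood at 152 ± 5.53 and 143 ± 4.08 CPM (adjusted p = 0.441). NRBP1 (94.1 ± 0.888 and 90.3 ± 3.80 CPM, adjusted p = 0.708) and WNK1 (106 ± 8.44 and 112 ± 8.45 CPM, adjusted p = 0.671), both named after their values were seen, were also expressed in both groups. The largest differences of the list, for KLHL3 (-0.65 ± 0.44 SE) and WNK3 (-0.39 ± 0.53 SE), were those of genes under 1 CPM.

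Glucocorticoid receptor target genes, with which TSC22D3 is usually grouped, went lower where they were called. Of 14 listed genes 11 were tested, 0 were higher and 3 lower (edgeR, and the same counts with DESeq2 and limma-voom), against 2.43% and 0.887% of all genes. At an unadjusted p under 0.05 there were 2 and 4, against 7.41% and 4.87%. SGK1, which encodes a kinase related to AKT, fell from 141 ± 3.47 to 106 ± 5.79 CPM (log2 fold change -0.42), the transcription factor gene KLF9 from 253 ± 4.33 to 206 ± 5.83 CPM (-0.30), and ERRFI1, which encodes an inhibitor of the EGF receptor, from 272 ± 7.82 to 230 ± 12.3 CPM (-0.25; SD, n = 3 each). ERRFI1 lost its call without TGFB1 replicate 3 (adjusted p = 0.0601, edgeR). The receptor gene NR3C1 stood at 124 ± 5.37 and 122 ± 3.66 CPM (adjusted p = 0.909). FKBP5, named after its value was seen, had a log2 fold change of 0.20 (adjusted p = 0.39), and the median of the list was -0.04. TSC22D3 was on the other side of 0 from the 3 called genes, at 0.45, but did not itself pass, and the difference was not tested.

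**Figure D4:**
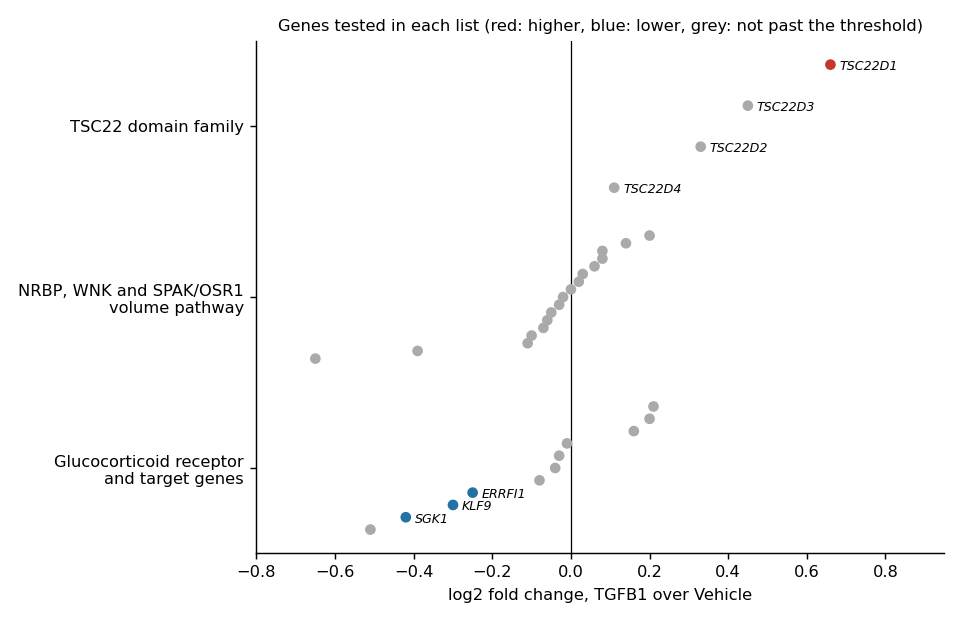
Log2 fold change of TGFB1 over Vehicle (horizontal axis) of each tested gene in the family, in the NRBP, WNK and SPAK/OSR1 list (17 genes) and in the glucocorticoid receptor list (11 genes), spread vertically by rank. TSC22D1 is the single higher gene, at 0.66, and SGK1, KLF9 and ERRFI1 are lower.

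The genes whose pattern over the 6 libraries was most like that of TSC22D1, by Pearson's r of log2 CPM among 9095 genes with a mean of at least 10 CPM, were PEDS1 (r = 0.9988), WEE1 (0.9988) and JUNB (0.9987). WEE1, which encodes a kinase that holds back mitosis, went up from 71.4 ± 3.40 CPM to 138 ± 3.68 CPM, and PEDS1, an enzyme gene of plasmalogen synthesis, from 17.8 ± 0.245 CPM to 23.9 ± 0.485 CPM (SD over the 3 libraries of a group). In all, 177 genes had an r over 0.95 with TSC22D1, so these 3 stand among many. The nearest patterns to TSC22D2 were those of EVC (0.9964), the TNF receptor gene TNFRSF1A (0.9955) and the metalloprotease gene ADAM19 (0.9903), and 61 genes passed 0.95. PLD3 (0.9944), PARVA (0.9852) and WARS1 (0.982) were nearest to TSC22D3, and ABITRAM (0.9807), the tubulin gene TUBA1B (0.9739) and CYBC1 (0.9612) to TSC22D4. These values describe 6 points that share 2 groups and their library depths. Between members, r was 0.86 for TSC22D1 with TSC22D2 and 0.84 for TSC22D1 with TSC22D3. As deviations from the group means they were -0.09 and 0.67, so the first rests on the difference between the groups.

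Library totals ran from 24713894 to 34895075 counts. Vehicle replicate 1 lay farthest out on the first principal component (-37.1, against -13.4 and -8.25 for the other Vehicle libraries). Without it TSC22D1 had a log2 fold change of 0.68 (adjusted p = 3.31e-13, edgeR). As a check of the label, MITF, the melanocyte regulator, had means of 62.4 ± 2.14 CPM (Vehicle) and 53.5 ± 1.58 CPM (TGFB1; SD, n = 3 each). It was called lower (log2 fold change -0.23, adjusted p = 0.0355, edgeR), a call kept under 8 of the 14 alternatives and lost, among others, on leaving out replicate 1 or replicate 2 of Vehicle (adjusted p = 0.107 and 0.229), or replicate 1 or replicate 3 of the TGFB1 group (0.208 and 0.205). SOX10 was at 0 counts in all 6 libraries and TYR had at most 5. The mode and strandedness of the counting are not given, so 0 counts for SOX10 does not show that its RNA was absent. DCT had 104 to 154 counts per library, PMEL 10 to 44 and MLANA 7 to 19. Their log2 fold changes were -0.50, -0.78 and 0.94, and none was called (adjusted p = 0.21, 0.536 and 0.563, edgeR). AXL, a receptor gene of dedifferentiated melanoma, was at 225 ± 16.7 CPM and S100B at 58.7 ± 5.21 CPM in Vehicle (SD, n = 3 each). Of the markers of other cell types, the 4 leukocyte genes summed to 5.73 to 7.48 CPM, nearly all from LYZ, and the 3 endothelial genes to at most 1.00 CPM. Marker sums of keratinocytes were 13.9 to 16.7 CPM in Vehicle and 14.9 to 18.8 CPM with TGFB1, mainly KRT14, and those of fibroblasts 11.1 to 12.8 and 8.70 to 10.4 CPM, mainly LUM. Their part in the family's values was not tested.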

How the data were processed

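RNA was measured in 6 libraries of A375 cells, 3 per group. The authors deposited raw read counts per Ensembl gene; per the submitters' processing notes reads went through cutadapt, TopHat2 2.1 and HTSeq on GRCh38. Not given in the sources used here are the strandedness, the mode of counting and the release of the annotation. The labels name polyA RNA, while their protocols describe ribosomal RNA depletion.

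Symbols were matched by gene ID. Genes were kept by filterByExpr (minimum count 10, minimum total 15; 16690 genes), scaled by TMM and tested with edgeR 4.0.16 (R 4.3.3) by its quasi-likelihood F-test, group being the one model term. Benjamini-Hochberg adjustment ran over every tested gene, and 0.05 was the threshold. The SE is the log2 fold change divided by the square root of F. CPM uses library totals of 24713894 to 34895075 counts. The script was tested on simulated data. Replicate numbers did not pair the libraries (correlations of deviations -0.0296, 0.0418 and 0.00761).

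The members and lists were chosen with earlier results of these data known. Named genes are the members, up to 6 called genes per list (or the 2 most abundant), the reference TGF-beta genes (1 is not reported here), neighbours, and the 3 nearest patterns per member. Alternatives were 3 other scalings, 2 other filters, a replicate block, DESeq2 1.42.0, limma-voom (limma 3.58.1), leaving out each library and, for shares, other lengths.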

Additional observations from a re-analysis of the deposited data

How the results depend on the processing

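TSC22D1 kept its direction and its call under all 14 alternatives, with log2 fold changes of 0.646 to 0.676 and adjusted p-values up to 7.17e-09. TSC22D2, TSC22D3 and TSC22D4 stayed short of the threshold under the 8 alternatives that kept all libraries, at adjusted p-values of at least 0.0671, 0.141 and 0.68. Leaving out 1 library gave log2 fold changes of 0.287 to 0.419 for TSC22D2, which passed without Vehicle replicate 3 (0.377) and without TGFB1 replicate 2 (0.419), and of 0.335 to 0.582 for TSC22D3. For TSC22D4 they were -0.00996 to 0.258, with the change of sign without Vehicle replicate 2. The members called then numbered 1 to 2, and the called genes among all those tested numbered 365 (without TGFB1 replicate 1) to 923 (without Vehicle replicate 3), against 553 with all libraries. Fewer samples enter each of these fits; the cause of the gains was not tested. The replicate numbers did not pair the libraries, and 1 of the 3 Vehicle libraries correlated best with the TGFB1 library of its own number. With a replicate block 601 genes and 1 member were called, and TSC22D1, TSC22D2, TSC22D3 and TSC22D4 had log2 fold changes of 0.661, 0.33, 0.436 and 0.119. Each share difference kept its sign under the 8 alternatives tried for it, from 2.68 to 4.6 points for TSC22D1 and from -0.605 to -0.0767 for TSC22D3. No scaling moved the median of all genes by as much as 0.1 on the log2 scale. TSC22D3 had the fewest counts of the 4 members, 124 to 261 per library, and also the widest fitted variation between libraries.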
